A study of Mus musculus with 24 samples.

Results

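Heart-enriched probes are the probes of a whole-transcriptome panel whose counts were concentrated in the microvascular regions of the mouse heart. They were selected on their own counts: a probe needed at least 10 counts in all 6 heart regions, and its heart level had to be at least 3 times that of the highest of the other 3 cell types. The level was the median over a cell type's 6 regions of the scaled count (CPM, the probe's counts divided by the region's total and multiplied by 1000000), with 1 added. Of 20186 probes with a count in any region, 754 had at least 10 counts in every heart region, and 76 of these passed. The rule allowed up to 150 probes, so the limit did not remove any.

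The series holds 24 regions of formalin-fixed, paraffin-embedded sections from male C57BL/6J mice, 3 regions for each of 4 cell types in each of 2 conditions. Diabetic mice had been given streptozotocin, a toxin of insulin-producing beta cells, at 50 mg/kg on 5 days from 8 weeks of age, non-diabetic mice had been given the citrate buffer alone, and tissue was taken 2 months later. CD31+ microvessels were taken from the heart (carMECs, MEC being microvascular endothelial cell), the kidney (renMECs) and the retina (retMECs), and NeuN+ cells from the retina (neuronal). Diabetic carMEC regions 2 and 3 are labelled as mouse heart with no mention of MECs. No label ties a region to 1 of the 3 mice per condition. The p-values below therefore rest on regions and on a spread that the test shares over probes.

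Endothelial cells line all blood vessels, and those of the smallest vessels take on features of the organ they supply. In the heart they form a dense capillary bed among the muscle fibres and pass oxygen and fatty acids to them. CD31 is an adhesion protein of the endothelial surface and was used here to choose the regions, whose RNA was read through barcoded probes released by ultraviolet light. The probes carry IDs but no gene names, and no table used here pairs them, so the heart label could not be checked against endothelial or heart muscle markers, and members are described below by their rank in the ratio (rank 1 being the highest). A value in CPM is a share of a region's counts, so in such bulk regions fewer cells of a type and less RNA per cell cannot be told apart, and the levels of different probes are not molar amounts.

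Depth differed widely. Totals ranged from 115269 to 521366 counts in carMECs, from 217736 to 1451915 in renMECs, from 28722 to 342522 in retMECs and from 78053 to 788146 in neuronal regions. The 3 diabetic carMEC regions, at 153319, 119636 and 115269 counts, were all shallower than the 3 non-diabetic ones, at 391604, 211272 and 521366. Between 39.9% and 61.0% of reads aligned in retMECs, which were on a plate of their own, so plate and cell type cannot be told apart for them. The aligned share was 79.4% in diabetic carMEC region 2 and at least 96.0% in the other 5 carMEC regions.

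The ratio that chose the members ran from 3.12 to 155 with a median of 5.84. It was at least 5 in 46 members, at least 10 in 21, at least 20 in 12 and at least 50 in 6. The 3 members closest to the threshold had ratios of 3.12, 3.13 and 3.14, and the 3 probes just outside it 2.98, 2.94 and 2.93. A further 16 probes reached 3 times but had under 10 counts in some heart region, at a median heart level of 76.9 CPM. Median heart levels of the members lay between 74.1 and 5467 CPM, with 72 members over 100 CPM and 14 over 1000 CPM.

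Among the most abundant probes of the heart, the heart-enriched probes were frequent. They made up 12 of the 20, 18 of the 50 and 31 of the 100 probes with the highest median heart CPM, and 9 of the 10 members with the highest ratio were among those 20. Since the rule used the heart level, this is a description and was not tested.

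The 5 members with the highest ratios were above 1000 CPM in all 6 heart regions. The member of rank 1 measured 2995, 3422 and 3878 CPM in non-diabetic carMECs and 2987, 3176 and 2776 CPM in diabetic carMECs, against 0 to 81.7 CPM in the other 18 regions. Rank 2 was held by a member at 3524, 4232 and 4918 CPM in non-diabetic and 4266, 4865 and 3808 CPM in diabetic carMECs. For both members the conditions overlapped, and the lowest heart region was far above every region of the kidney and retina.

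The member of rank 3 was at 2783, 3635 and 4325 CPM in non-diabetic carMECs and at 2746, 3059 and 2646 CPM in diabetic carMECs. At rank 4 the levels were 1427, 1784 and 1966 CPM and 1252, 1630 and 1327 CPM in the same order. Rank 5, the most abundant of all members, was at 4701, 6489 and 6418 CPM in non-diabetic and at 5224, 5709 and 3991 CPM in diabetic carMECs. All 3 overlapped between conditions, and in each the lowest heart value came from a diabetic region.

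**Figure D1:**
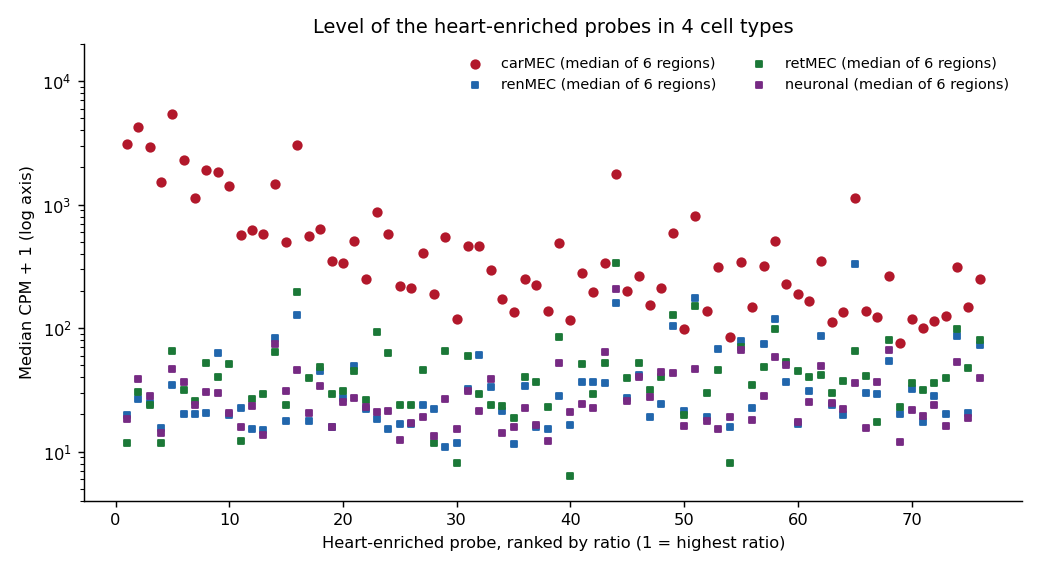
Median CPM plus 1 (log axis) of each of the 76 heart-enriched probes in carMECs, renMECs, retMECs and neuronal regions (6 regions each), against the rank by ratio on the x axis. Red points (carMECs) lie above the squares of the other cell types throughout, as the rule requires, by 155 times at rank 1 and by 3.12 times at rank 76.

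Taken as a share of all counts, the members held 4.70%, 5.65% and 6.00% of the 3 non-diabetic carMEC regions and 5.09%, 6.30% and 4.57% of the 3 diabetic ones. These are 5.45% ± 0.675 (SD, n = 3) and 5.32% ± 0.886 (SD, n = 3), and the conditions overlapped. The ratio of the diabetic to the non-diabetic mean was 0.976 ± 0.203 (SD propagated from the regions). In each heart region the 10 most abundant members supplied between 47.1% and 57.2% of the members' counts.

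In 17 of the 18 regions outside the heart the share was between 0.209% and 0.428%. The exception was diabetic retMEC region 2, at 1.10% (316 of 28722 counts, 95% Wilson interval 0.986% to 1.23%, which covers counting error only). The other 5 retMEC regions held 0.311% to 0.408%. Diabetic retMEC region 2 was the shallowest of the series and had the lowest aligned share, 39.9%, and the part of either in this value was not tested.

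**Figure D2:**
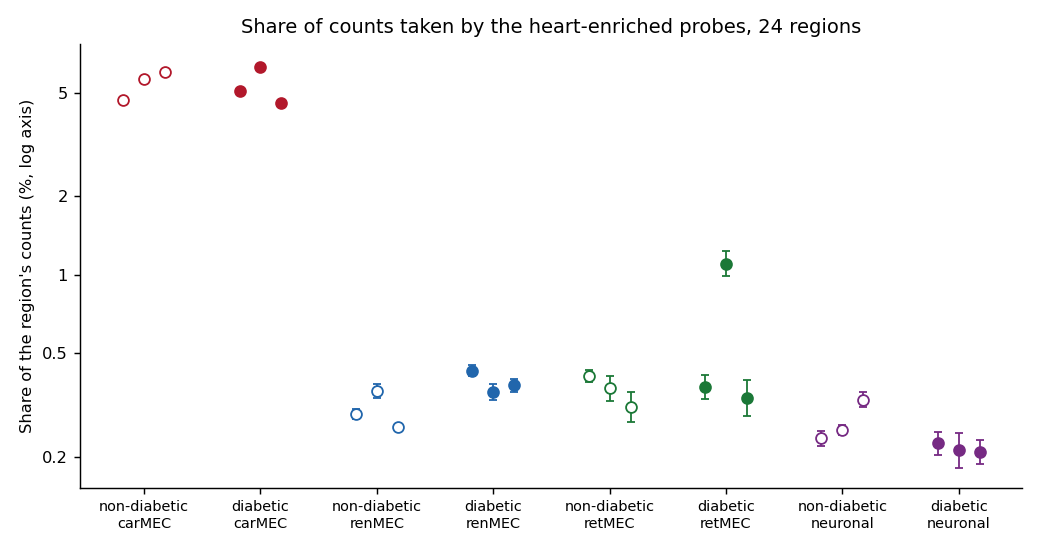
Share of each region's counts taken by the 76 heart-enriched probes (percent, log axis), 1 point per region with its 95% Wilson interval, open for non-diabetic and filled for diabetic. CarMEC regions lie between 4.57% and 6.30%, diabetic retMEC region 2 is at 1.10%, and the other 17 regions are at or below 0.428%.

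In diabetic retMEC region 2, 8 members had at least 10 counts and together made up 57.3% of the members' counts there, while 20 members had none. Leading there was the member of rank 23 with 41 counts, or 1427 CPM, against at most 172 CPM in the other retMEC regions. Rank 5 followed with 37 counts (1288 CPM, at most 150 CPM in the others), and the member of rank 39 with 22 counts (766 CPM, at most 107 CPM in the others). The higher share was spread unevenly over the members, since of the 10 with the highest ratio, 3 had 0 counts in that region, where 1 count stands for 34.8 CPM and a count of 0 allows up to 104 CPM.

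Outside the heart the members sat near the middle of all probes. Their median percentile among all probes was 99.1 to 99.3 in the heart regions. It was 42.7 to 55.2 in renMECs, 36.6 to 49.8 in neuronal regions and 37.0 to 78.0 in retMECs, the highest again being diabetic retMEC region 2. In the 18 regions outside the heart, 27 to 39 of the 76 members were above the region's own median probe. The members' median level over cell type medians was 38.4 CPM in retMECs, 23.1 CPM in renMECs and 22.9 CPM in neuronal regions, beside 34.9, 24.4 and 26.2 CPM for all probes.

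Which cell type came next after the heart differed between members. It was the retMECs for 48 members, the renMECs for 17 and the neuronal regions for 11. Counts were low in the retMECs, where the members' summed counts over 6 regions had a median of 29.5 and ranged from 16 to 164, so the order of the lower levels there rests on few counts. In all 3 of the other cell types 9 members were above the 75th percentile of all probes, 22 were so in 1 or 2 of them (14 and 8), and 45 in none.

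The highest cell type medians outside the heart were found at ranks 44 and 65. At rank 44 the probe measured 1535 to 1943 CPM in carMECs, 140 to 731 CPM in retMECs, 89.9 to 198 CPM in renMECs and 128 to 303 CPM in neuronal regions. Rank 65, RTS0066298, had the highest renMEC level of all members (median 327 CPM). Over 100 CPM were 4 members in retMECs, 6 in renMECs and 1 in neuronal regions.

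The next counts come from the same regions that the rule used, so they describe the choice and were not tested. For 61 of the 76 members the lowest of the 6 heart regions was above the highest of the other 18. Without diabetic retMEC region 2 this held for 69 members over 17 regions, and over the 12 renMEC and neuronal regions, which shared a plate with the heart, for 72. The same ratio computed within 1 condition alone, from 3 regions per cell type, was at least 3 in 63 members for non-diabetic and in 70 for diabetic regions, and in both for 59. It was at least 2 in both conditions for 74.

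The lowest of these ratios was 0.967, for the member of rank 69 in non-diabetic regions. That member measured 46.0, 61.5 and 48.0 CPM in non-diabetic carMECs and 97.8, 134 and 86.8 CPM in diabetic carMECs. It passed the rule only through the diabetic regions, so the difference between its conditions follows from the choice. It stayed among the members tested for diabetes below, where its result is not read as a change in diabetes.

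Levels within the heart were repeatable for most members. The coefficient of variation over the 6 heart regions had a median of 19.0% over the members and 20.6% over the other 678 probes with at least 10 counts in all heart regions. It exceeded 40% in 6 members and in 15 of the 678. The 2 highest values, 169% and 155%, belonged to the members of rank 32 and 55.

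These 2 members moved together between heart regions of both conditions. At rank 32 the values were 728, 204 and 36.4 CPM in non-diabetic and 737, 4923 and 86.8 CPM in diabetic carMECs, a 135-fold range. At rank 55 the values were 536, 151 and 48.0 CPM in non-diabetic and 548, 2951 and 86.8 CPM in diabetic carMECs, a 61.5-fold range. Both were highest in diabetic carMEC region 2 and lowest in non-diabetic carMEC region 3.

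The pair was also high together in single regions outside the heart. In non-diabetic renMEC region 2 they were at 448 and 418 CPM, and in non-diabetic neuronal region 3 at 560 and 352 CPM, with at most 132 CPM in every other region of the kidney and retina. Over all 24 regions the Pearson correlation of their log2(CPM + 1) values was 0.86 and the Spearman correlation 0.83, where the points share library depth and may share mice. Within cell types of 6 regions the Pearson correlation was 0.998 in carMECs, 0.95 in renMECs and 0.87 in neuronal regions, but 0.11 in retMECs, where the 2 did not move together. Their diabetes fold changes in carMECs were large but had large errors, at 2.49 ± 1.83 (log2, SE) and 2.19 ± 1.60. The adjusted p was 0.826 for both in edgeR's test, so no change was detectable. Both members had a ratio under 3 in non-diabetic regions and so passed the rule only through the diabetic ones. The positive sign of these fold changes may therefore follow in part from the choice.

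**Figure D3:**
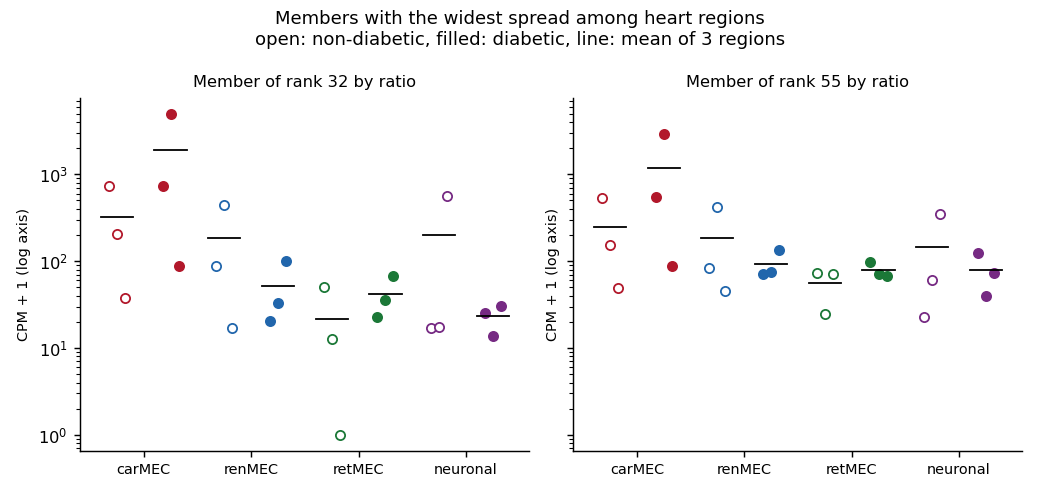
CPM plus 1 (log axis) in all 24 regions of the 2 members with the widest spread among heart regions, rank 32 (left) and rank 55 (right), open for non-diabetic, filled for diabetic, with a line at the mean of 3 regions. Diabetic carMEC region 2 (4923 and 2951 CPM), non-diabetic renMEC region 2 and non-diabetic neuronal region 3 are high in both panels.

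Diabetes was compared with its absence within carMECs, a contrast the rule did not use, although its heart medians pooled both conditions. RTS0073724 and RTS0066298 rose in diabetic carMECs and RTS0064170 fell, and no other member passed the test. Counts of the 3 diabetic and the 3 non-diabetic regions entered edgeR's quasi-likelihood test with 75th percentile factors. The test shares information on the spread between regions over all probes. Its p and SE therefore do not measure a probe's own spread over 3 against 3 regions alone. The SE was the absolute log2 fold change divided by the square root of the F statistic. A probe was called where its p, adjusted by Benjamini and Hochberg over the 3247 probes tested, was under 0.05. All 76 members were tested. The 2 members called higher were 2.63% of them, beside 0.339% of all probes tested, and the 1 called lower was 1.32%, beside 0.585%. With 3 calls, no difference of the members from the background was read.

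RTS0073724 (rank 22) had the clearest change. It measured 112, 94.7 and 55.6 CPM in non-diabetic carMECs and 411, 660 and 382 CPM in diabetic carMECs, so every diabetic region was over 3 times the highest non-diabetic one. The means were 87.6 ± 29.0 and 484 ± 153 CPM (SD, n = 3), and the log2 fold change was 2.36 ± 0.24 (SE) with an adjusted p of 1.33e-19 by edgeR. The call held under all 15 alternatives tried, with log2 fold changes from 2.06 to 2.60.

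Outside the heart RTS0073724 was at 11.4 to 30.0 CPM in renMECs, 6.10 to 36.8 CPM in neuronal regions and 0 to 35.0 CPM in retMECs, near the median probe. Its ratio of heart to next cell type was 3.17 in non-diabetic and 15.5 in diabetic regions. The probe was thus only just enriched in the heart without diabetes, and the diabetic regions placed it at rank 22.

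RTS0066298 (rank 65) measured 712, 809 and 539 CPM in non-diabetic carMECs and 1468, 1613 and 1874 CPM in diabetic carMECs, and the groups did not overlap. The log2 fold change was 1.13 ± 0.21 (SE) with an adjusted p of 3.43e-05 by edgeR. It remained called under 13 of 15 alternatives. The exceptions were a model of all 24 regions (adjusted p = 0.599) and the fit without diabetic regions 2 and 3, whose labels name no MECs (adjusted p = 0.613, log2 fold change 0.95), and the range over the alternatives was 4.22e-09 to 0.613.

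The same probe rose in the kidney. RTS0066298 measured 204, 232 and 200 CPM in non-diabetic renMECs and 698, 423 and 452 CPM in diabetic renMECs, again without overlap, a log2 fold change of 1.10 ± 0.22 (SE) with an adjusted p of 0.00358 by edgeR. The call was lost without non-diabetic renMEC region 3 (adjusted p = 0.0570), without diabetic renMEC region 1 (0.0715) and in the model of all 24 regions (0.0714), and the range over 13 alternatives was 0.00026 to 0.0715. The renMEC and carMEC fits share no regions, although the regions may share mice. The difference between the 2 effects was 0.03 ± 0.51 (log2, SE), with an adjusted p of 0.998.

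RTS0064170 (rank 24) measured 672, 800 and 765 CPM in non-diabetic carMECs and 437, 476 and 269 CPM in diabetic carMECs, without overlap. The log2 fold change was -1.06 ± 0.22 (SE) with an adjusted p of 0.000961 by edgeR. This call was less stable, with 10 of 15 alternatives keeping it and adjusted p from 3.28e-05 to 0.734. It was lost at a like fold without diabetic carMEC region 1 (log2 fold change -1.13, adjusted p = 0.0812), in the model of all 24 regions (-1.06, 0.5002) and without regions 2 and 3 (-0.93, 0.734). The fold was smaller without region 3 (-0.84, 0.242) and with all carMEC regions thinned to the lowest total (-0.68, 0.124).

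RTS0066721 (rank 21) had the second smallest p among members with a negative fold change and did not pass. It measured 575, 573 and 664 CPM in non-diabetic and 437, 435 and 304 CPM in diabetic carMECs, a log2 fold change of -0.77 ± 0.22 (SE) with an adjusted p of 0.0582 by edgeR. The groups did not overlap. It passed under 3 of 15 alternatives, with adjusted p from 0.0169 to 0.919.

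**Figure D4:**
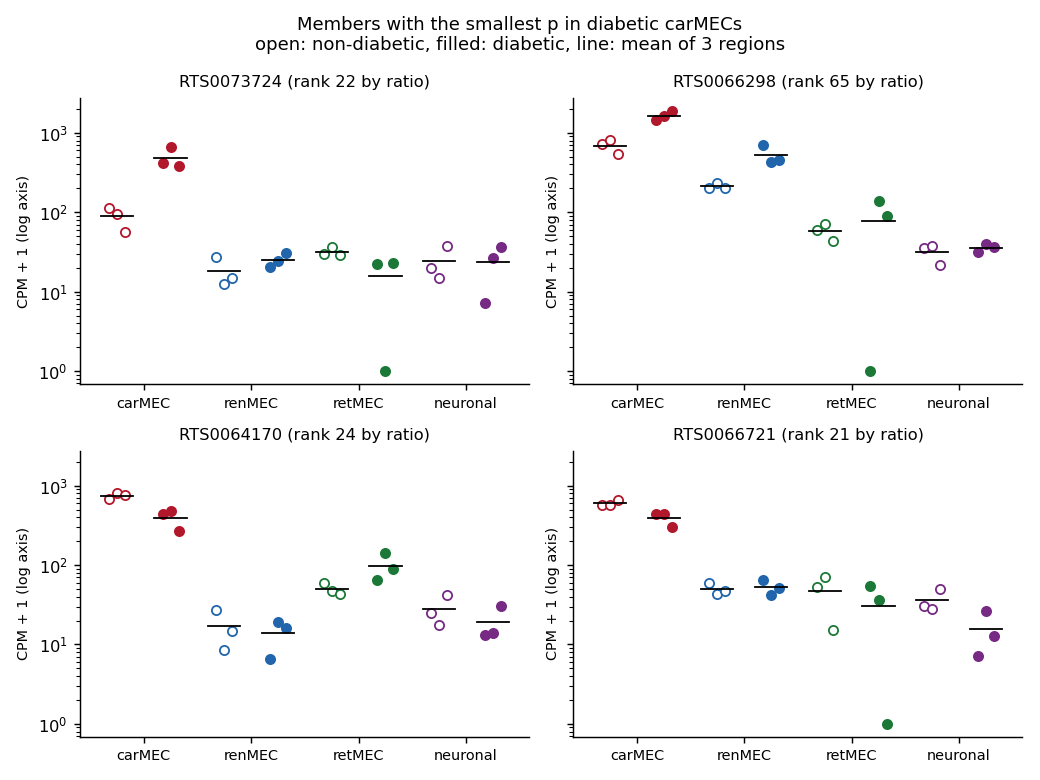
CPM plus 1 (log axis) in 24 regions of the 4 members with the smallest p in each direction in diabetic carMECs, open for non-diabetic, filled for diabetic, with a line at the mean of 3 regions. The diabetic carMEC points lie above the non-diabetic ones for RTS0073724 and RTS0066298 and below them for RTS0064170 and RTS0066721, and those of renMECs lie above for RTS0066298.

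One further member was close to the threshold. This member, of rank 20, measured 153, 327 and 190 CPM in non-diabetic and 424, 418 and 347 CPM in diabetic carMECs, a log2 fold change of 0.73 ± 0.23 (SE) with an adjusted p of 0.0998 by edgeR. Its groups did not overlap, and it passed under 6 of 15 alternatives, with adjusted p from 0.0113 to 0.910. In renMECs it was at 5.27, 22.8 and 19.3 CPM without and 86.8, 36.7 and 30.0 CPM with diabetes, a log2 fold change of 1.47 ± 0.47 (SE) with an adjusted p of 0.114. There it passed in the model of all 24 regions (1.48, adjusted p = 0.0217) and without diabetic renMEC region 3 (1.79, 0.0325), and the range of adjusted p over the alternatives was 0.0217 to 0.2004.

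Below the adjusted threshold more members had lower than higher values in diabetic carMECs, an order that turned with TMM factors. At an unadjusted p under 0.05, 19 of the 76 were lower and 5 were higher, beside 6.28% lower and 2% higher of all 3247 probes tested. With TMM factors 3 were lower and 8 higher, beside 2.42% and 6.64% of all probes tested. Total counts gave 8 lower and 7 higher, beside 95 and 167 of all 3026 probes tested. DESeq2 gave 9 lower and 4 higher, beside 50 and 59 of all 3247. Of the 5 that were higher in the main fit, 2 had a ratio under 3 in non-diabetic regions and so passed the rule only through the diabetic ones. In the same fit, 1 of the 19 that were lower had a ratio under 3 in diabetic regions.

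The median log2 fold change was -0.23 over the members and -0.11 over all probes tested. With TMM factors these medians were -0.04 and 0.10, with total counts -0.08 and 0.06, and with DESeq2 -0.12 and -0.00013. No test was made of the list, whose members share regions and depth.

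As a comparison above a shared minimum level, the 297 probes with a mean of at least 200 CPM over the 6 heart regions were taken, a set chosen after seeing the data. They were chosen by this mean because a minimum of 10 counts in each region, which the members also had to meet, stands for 86.8 CPM in the shallowest (diabetic) and 19.2 CPM in the deepest (non-diabetic) heart region and so favours probes that are higher in diabetes. Of the 297 probes, 3 were under 10 counts in some heart region. The median log2 fold change was -0.25 over the 52 members among them (41 negative) and -0.05 over the 245 others (136 negative). Members and others were not matched by level above the minimum, and members made up 12 of the 20 probes with the highest median heart CPM.

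By region, the median log2 deviation of these 52 members from their own heart mean, minus that of the 245 others, was 0.05, 0.09 and 0.18 in non-diabetic carMECs and -0.14, 0.01 and -0.22 in diabetic carMECs. The means were 0.11 ± 0.07 and -0.12 ± 0.11 (SD, n = 3), and non-diabetic region 1 and diabetic region 2 lay close together. The scaling of a region hardly enters this measure, which was not tested.

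The values along the ranking are given as a description, with no test of their difference. Of the 20 members with the highest ratio, 18 had a negative log2 fold change, with a median of -0.35 and a range from -0.57 to 0.73. Of the other 56, 38 were negative, with a median of -0.15. Over the members the ratio rose with the heart level (rho 0.69), so the ranking also orders them in part by level. With TMM factors 15 of the 20 and 27 of the 56 were negative, with medians of -0.17 and 0.03. Of all 3247 probes tested, 2002 were negative in the main fit.

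**Figure D5:**
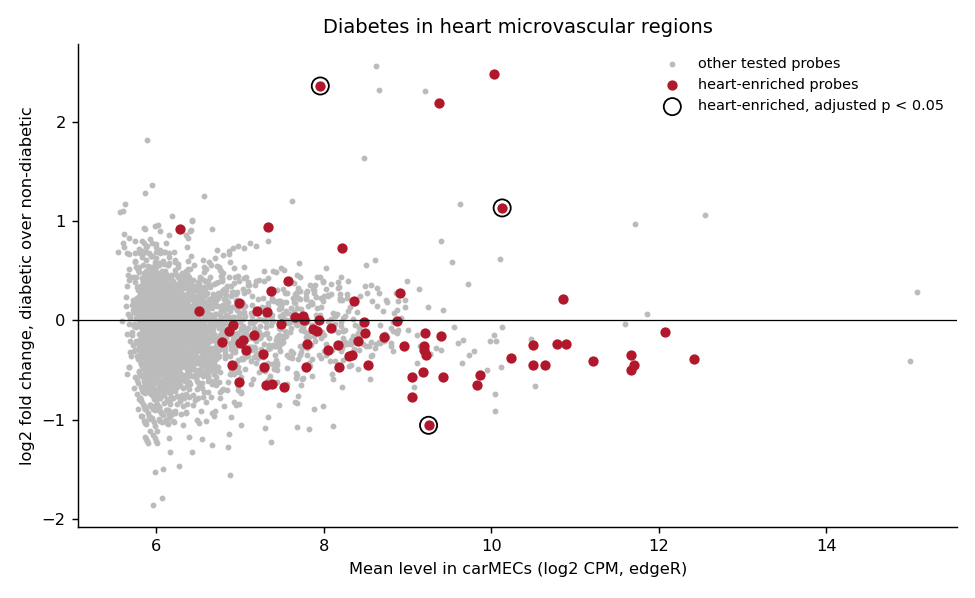
Log2 fold change of diabetic over non-diabetic carMECs (edgeR) against the mean level (log2 CPM) for all 3247 probes tested, with the 76 heart-enriched probes in red and those with an adjusted p under 0.05 circled. Of the red points 56 lie below 0 and 20 above, and the 2 uncircled points above 2 are the members of rank 32 and 55.

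In CPM, the diabetic and non-diabetic heart regions did not overlap for 15 members, 7 with the diabetic regions above (9.21%) and 8 with them below (10.5%). Over all 754 probes with at least 10 counts in the 6 heart regions, the shares were 18.6% above and 4.77% below, under the same minimum that favours probes higher in diabetes. On counts scaled to the 75th percentile, 3 members were above and 12 below, beside 66 and 57 of the other 678, so the split again moved with the scaling.

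Outside the heart few members had enough counts for a test of diabetes. In renMECs 35 were tested among 9486 probes. RTS0066298 was called higher, beside 0.464% of all probes tested, and the member of rank 53 lower, beside 3.25%. That member measured 120, 83.6 and 139 CPM in non-diabetic and 44.8, 36.7 and 50.9 CPM in diabetic renMECs, a log2 fold change of -1.64 ± 0.28 (SE) with an adjusted p of 0.000916 by edgeR, and in carMECs its log2 fold change was -0.35 ± 0.23 (adjusted p = 0.732). Same-numbered renMEC regions deviated together, and with the replicate number as a block a second member was called higher, that of rank 51 (log2 fold change 1.14, adjusted p = 0.00237).

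In neuronal regions 11 members were tested among 4135 probes and 0 were called, beside 0.145% higher and 1.09% lower of all probes. At an unadjusted p under 0.05, 1 was lower and 0 higher by edgeR, beside 5.76% and 3.7% of all probes, and DESeq2 called 0. In retMECs 4 members were tested among 699 probes, and 0 of all probes (0%) and 0 members were called by edgeR or by DESeq2, with 0 members at an unadjusted p under 0.05. The filter left the other 72 untested. With no filter all 76 were tested and 0 were called. Of these, 7 were higher and 2 lower where p was under 0.05 before adjustment, beside 0.952% and 4.58% of all probes. Among the other probes with at least 10 counts in every heart region, 16 of 676 were higher and 3 lower. The diabetic group of this fit includes retMEC region 2, where the members held 1.10% of counts, and its part in these values was not tested.

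Whether the effect of diabetes differed between the heart and another cell type was tested in 1 model of all 24 regions over 11299 probes, which could not include the mouse. No member was called, beside 0.0531% of all probes for carMECs against renMECs, 0.106% against retMECs and 0.00885% against neuronal regions. At an unadjusted p under 0.05 the model gave 3 members with a higher and 4 with a lower effect in carMECs than in renMECs, beside 2.41% and 4.13% of all probes. Against retMECs they were 6 and 8, beside 3.08% and 4.32%, and against neuronal regions 2 and 1, beside 1.74% and 2.49%. All 8 members with a lower effect than in retMECs had their highest retMEC level in diabetic retMEC region 2, the shallowest of the series. The smallest p among these 8 was at rank 5 (-3.12 ± 0.76, log2, SE, adjusted p = 0.0670 by edgeR). The part of that region in these differences was not tested. DESeq2 was not run on these contrasts.

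RTS0073724 had the largest positive differences among the members named by ID. Some members given by rank had larger ones that did not pass. Examples are rank 30 against retMECs (6.14 ± 1.98, log2, SE, adjusted p = 0.315) and rank 32 against neuronal regions (5.36 ± 2.42, adjusted p = 0.999). The diabetes effect of RTS0073724 was higher in carMECs by 2.11 ± 0.51 (log2, SE) than in renMECs (adjusted p = 0.101), by 3.14 ± 0.86 than in retMECs (adjusted p = 0.111) and by 2.22 ± 0.63 than in neuronal regions (adjusted p = 0.999). With TMM factors its difference from renMECs passed, at 2.40 with an adjusted p of 0.0211. The rise of this probe was therefore not shown to be particular to the heart.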

How the data were processed

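Probe counts were deposited by the authors for each region, as made with GeoMx NGS Pipeline 2.3.4 (1 count per unique molecular identifier), with no scaling and with probes at 0 left out, which were set to 0 here. The members and all lists were chosen with earlier results of these data known. Gene lists drawn up could not be used, since the probes have no gene names here. Named probes are the 2 members with the smallest p in each direction in carMECs; others go by rank. Tests used edgeR 4.0.16 in R 4.3.3 (glmQLFTest, robust, filterByExpr with a minimum of 10 counts, 75th percentile factors). The carMEC fit was also run on simulated counts, whose outcome is not given here. Alternatives were TMM, total counts, DESeq2 1.42.0 on the same probes, a replicate block, no filter, a stricter filter (10 counts or more in each region), 1 model of 24 regions, each region left out, and, added after seeing the data, thinning to the lowest total and leaving out diabetic carMEC regions 2 and 3. Same-numbered regions correlated above 0.1 in all 3 pairs for renMECs only (0.27, 0.30 and 0.19). No replicates were duplicates (chi-square per degree of freedom 1.09 to 3.53).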

Additional observations from a re-analysis of the deposited data

Results flagged for a closer look

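In 2 of the named members all 3 diabetic regions lay on opposite sides of the non-diabetic ones in carMECs and retMECs. RTS0064170 was lower in diabetic carMECs, while in retMECs it measured 58.4, 46.7 and 42.2 CPM without and 64.4, 139 and 89.0 CPM with diabetes, on 20, 4 and 3 counts against 6, 4 and 4. The difference of its effect in carMECs from that in retMECs was -1.71 ± 0.66 (log2, SE) with an adjusted p of 0.463 in the 24-region edgeR model, so it did not pass. RTS0073724 was higher in diabetic carMECs, while in retMECs it had 10, 3 and 2 counts without and 2, 0 and 1 counts with diabetes. The difference was 3.14 ± 0.86 with an adjusted p of 0.111 and did not pass either.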

How the results depend on the processing

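Of 157 values under alternatives, 136 stayed within 1.5 times the count, or within 1 SD, of the value reported. The 136 include the calls in retMECs and neuronal regions, which were 0 in the main fit and in every alternative. The main fit tested only 4 and 11 members there. In carMECs, where 2 members were called higher and 1 lower, TMM gave 4 higher, DESeq2 and the filter of at least 10 counts in every region each gave 2 lower, and thinning gave 0 lower. Among the 4 with TMM was the member of rank 69 (log2 fold change 1.11, adjusted p = 0.0447 by edgeR). That member had passed the rule only through the diabetic regions. The model of all 24 regions and the fit without diabetic carMEC regions 2 and 3 both gave 1 higher and 0 lower. In that fit the lone diabetic region is assumed to vary like the non-diabetic ones. Leaving out 1 carMEC region gave 2 to 4 higher and 0 to 5 lower, with 4 higher without non-diabetic region 2, 5 lower without non-diabetic region 1 and 0 lower without diabetic region 1 or 3. The members' median log2 fold change of -0.23 moved to -0.041 with TMM and ranged from -0.34 to -0.060 with 1 region left out. The replicate block gave 2 higher and 1 lower in carMECs (median -0.21) and 2 higher in renMECs, where it raised the calls over all probes from 352 to 573, and it changed no other count of members called. In renMECs the filter of at least 10 counts in every region gave 0 lower. It left the member of rank 53 untested, which had 8 counts in diabetic renMEC region 2. That member was called lower in all 12 alternatives that tested it. Leaving out 1 renMEC region gave 0 to 2 higher, with 0 without non-diabetic region 3 or diabetic region 1 and 2 without diabetic region 3. For the difference between cell types, TMM called 1 member for renMECs and the fit with no filter 1 for retMECs. The latter was the member of rank 5 (log2 difference -3.11, adjusted p = 0.0430 by edgeR), whose highest retMEC level was in diabetic region 2. The causes of the other changes were not tested. Other forms of the rule kept 51 to 76 of the 76 members, with 51 at a minimum of 20 counts and 71 to 75 without 1 heart region. A minimum of 5 counts and leaving out retMECs only loosen the rule, so they had to keep all 76. These looser forms passed 90 and 95 probes.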

Other observations

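Outside the members, 2 probes followed the pair of wide spread. Among 8129 probes averaging 10 or more counts per region, the highest Pearson correlations with the member of rank 32 over 24 regions (log2 of CPM + 1) were 0.97 and 0.84, besides 0.86 for the member of rank 55, and the next was 0.75. These 2 probes ranged from 32.6 to 1956 CPM and from 21.1 to 2909 CPM among the heart regions. Their correlations were found by searching all probes and have no test.

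In diabetic carMEC region 2, 11 probes with at least 10 counts were at 5 times or more the median of the other 5 heart regions, and 3 of them were members. The number was 5, 2 and 3 in the non-diabetic carMEC regions and 0 and 1 in diabetic regions 1 and 3.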
